A study of Sus scrofa with 4 samples.

Results

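Day 4 (D4) of adipogenic differentiation was compared with day 0 (D0) in cultured pig subcutaneous preadipocytes, for 3 classes of RNA, namely mRNAs, long transcripts that encode no protein (lncRNAs) and circular transcripts (circRNAs). An mRNA or lncRNA entered the comparison if its level reached 1 FPKM at D0 or D4. FPKM is a number of fragments scaled to transcript length and library size, but not to the make-up of each library. Summed mRNA FPKM was 410188 at D0 and 399054 at D4, and counts under other scalings are given further below. This left 10086 of 16192 mRNAs and 840 of 5615 lncRNAs. A circRNA entered if at least 10 reads crossed its back-splice junction at D0 or D4, which left 2273 of 8623 circRNAs. The difference was taken as log2((D4 + 0.1)/(D0 + 0.1)) of FPKM, called the log2 ratio from here on.

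The cells came from the subcutaneous fat of 3 male Chinese Erhualian piglets of 5 days, a breed known for its fatness, and were released by collagenase digestion, with no sorting step described. D0 was the confluent culture before induction. For D4, the cells had received dexamethasone, 3-isobutyl-1-methylxanthine and insulin in growth medium until day 2 (D2), followed by insulin alone until day 4, and D8 cells (day 8) had then returned to growth medium. RNA of the 3 animals was pooled in equal amounts into 1 rRNA-depleted, strand-specific library for each of the 4 stages. The library and the stage therefore cannot be told apart, no difference has a replicate error, and no p-value is given. In what follows, "rose" and "fell" mean a difference of at least 2-fold between the D4 and the D0 library. Intervals cover counting error only, that is, the read numbers behind the 2 values, and the spread between animals or cultures was not measured.

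Preadipocytes are fibroblast-like cells that turn into fat cells when glucocorticoid, cAMP and insulin signals are raised together. The early factors CEBPB and CEBPD lead to PPARG and CEBPA, the nuclear receptor and the bZIP factor that switch on genes for taking up, making and storing fat. The cells meanwhile lose the stress fibres of a fibroblast, change their matrix from interstitial to basement membrane type and, in many culture systems, pass through a round of division before they stop dividing.

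FPKM rested on 75387421 fragments at D0 and 74358915 at D4, against 54987796 at D2 and 54128146 at D8. A single fragment on a transcript of 1 kb was thus worth 0.0133 FPKM at D0. The 10 most abundant mRNAs held 10.9% of the summed mRNA FPKM at D0 and 10.9% at D4. Junction reads of circRNAs summed to 53207 at D0 and 51074 at D4. In bulk RNA of this kind, fewer cells of a type and less RNA per cell cannot be told apart.

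Of the 10086 mRNAs, 1166 (11.6%) rose and 1036 (10.3%) fell, and these shares are the background for every list below. The median log2 ratio was 0.06, with the middle 50% of mRNAs between -0.42 and 0.54. Differences of at least 8-fold were seen in 147 mRNAs that rose and 103 that fell. In all, 674 mRNAs reached the filter through D4 alone and 427 through D0 alone, and for these the filter itself fixes the direction. At the threshold, ARHGAP28 (2.84 and 5.78 FPKM) lay just outside on the upper side and FGF2 (22.0 and 10.95 FPKM) just outside on the lower side, whereas MCUB (26.1 and 13.0 FPKM) lay just inside.

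**Figure D1:**
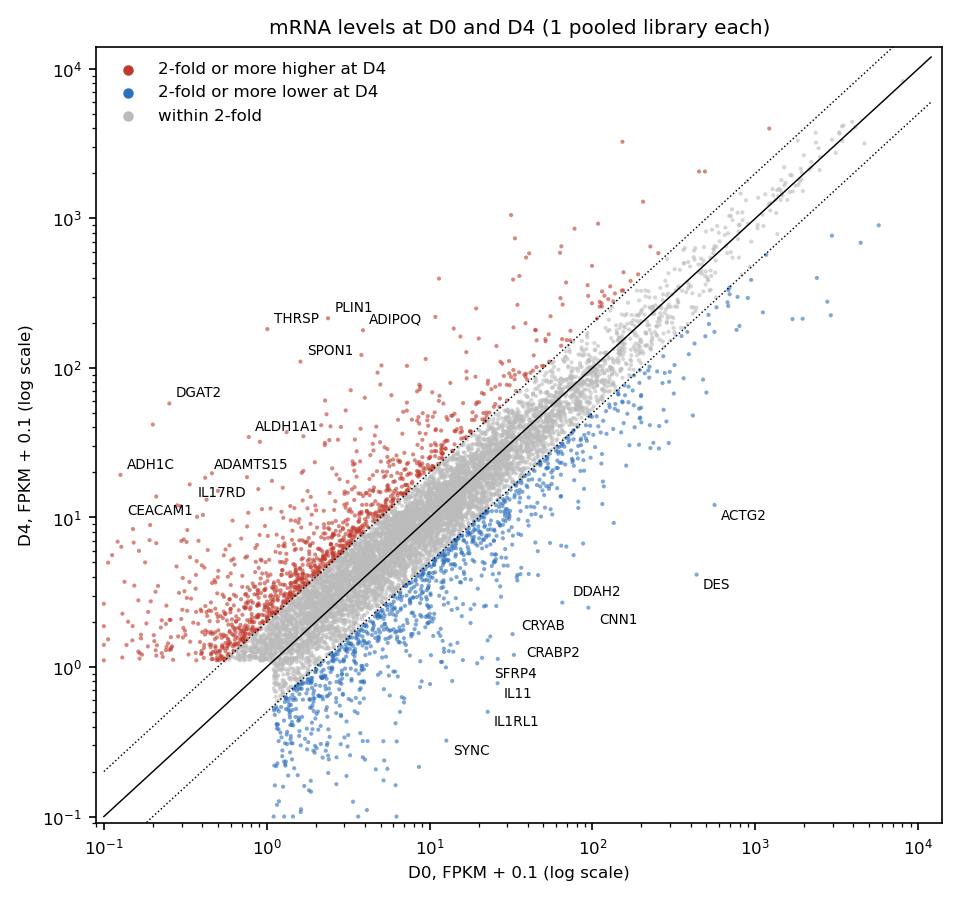
mRNA levels at D0 (x axis) and D4 (y axis), as FPKM + 0.1 on log scales, with 1 point per mRNA and 1 pooled library per axis. The solid line marks equal levels and the dotted lines 2-fold differences. The 10 largest rises and falls among mRNAs of at least 10 FPKM are named, with DGAT2, THRSP and PLIN1 far above the upper line and DES and ACTG2 far below the lower one.

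The largest log2 ratio among mRNAs of at least 10 FPKM with a gene symbol was that of DGAT2, which carries out the last step of triglyceride synthesis. It went from 0.152 FPKM (17 fragments) at D0 to 57.7 FPKM at D4, a ratio of 379 with a 95% counting interval of 236 to 651. THRSP, a nuclear protein tied to lipogenesis, rose from 0.908 to 182 FPKM. ADH1C, an alcohol dehydrogenase, had only 3 fragments at D0 and 2146 at D4, or 0.0264 and 19.2 FPKM, a ratio of 725 with an interval of 248 to 3519. That ratio is above the one of DGAT2, and the order rests on the pseudocount, since with 0.01 the log2 ratio of ADH1C was 9.04 and the log2 ratio of DGAT2 was 8.47. PLIN1, the coat protein of fat cell lipid droplets, rose from 2.28 to 215 FPKM, and ADIPOQ, the hormone adiponectin, from 3.80 to 179 FPKM. The remaining large rises were not genes of fat storage. SPON1, a secreted matrix protein, rose from 1.51 to 110.1 FPKM and had fallen back to 23.8 FPKM at D8. CEACAM1, an adhesion receptor, rose from 0.110 to 13.7 FPKM and stood at 1.54 FPKM at D8. IL17RD, which restrains fibroblast growth factor signalling, showed the same shape with 0.237, 16.5 and 2.90 FPKM at D0, D4 and D8. ADAMTS15, a metalloprotease that cuts proteoglycans, went from 0.319 to 18.3 FPKM and was at 0.575 FPKM at D8. ALDH1A1, which oxidises retinaldehyde, was already at 36.9 FPKM at D2 and 34.4 FPKM at D4, after 0.675 FPKM at D0.

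The largest fall was that of DES, the muscle intermediate filament desmin, from 436 FPKM at D0 to 4.05 FPKM at D4, or 108-fold (interval 100.1 to 116). SYNC, a partner of desmin in muscle, fell from 12.6 to 0.222 FPKM. Smooth muscle actin ACTG2 fell from 562 to 12.02 FPKM and calponin CNN1 from 94.3 to 2.39 FPKM. Both were higher again at D8, with 315 FPKM of ACTG2 and 24.2 FPKM of CNN1. The interleukin 33 receptor IL1RL1 fell from 22.6 to 0.401 FPKM. IL11, a cytokine of stressed fibroblasts, fell from 26.1 to 0.679 FPKM and was still at 1.11 FPKM at D8. CRABP2, which carries retinoic acid to the nucleus, fell from 32.8 to 1.11 FPKM, opposite in direction to ALDH1A1, and was back at 29.9 FPKM at D8. DDAH2, which breaks down methylarginines, went from 65.2 to 2.59 FPKM. The WNT antagonist SFRP4 fell from 26.1 to 1.03 FPKM and the small heat shock protein CRYAB from 32.2 to 1.56 FPKM.

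Lists of genes of known function were then read one by one. The 42 lists held 1259 genes, some in more than 1 list, of which 1190 were matched by symbol and 1018 reached the filter. Genes not matched by symbol were not analysed here. Counts and medians describe the members that reached the filter, and for those that reached it through one library alone the filter fixes the direction. Members kept through D4 alone numbered 7 of 26 adipogenic transcription factors, 6 of 19 lipid droplet genes and 6 of 25 WNT genes. They also made up 6 of 29 interferon-stimulated genes and 6 of 25 glucocorticoid and cAMP genes. Through D0 alone, 6 of 19 cytokines and chemokines and 6 of 52 mitotic genes were kept. Other lists also held such members. Through D4 alone, these included 4 of 19 secreted fat cell proteins, 4 of 25 immediate early genes and 4 of 23 alcohol, aldehyde and retinoid enzymes.

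**Figure D2:**
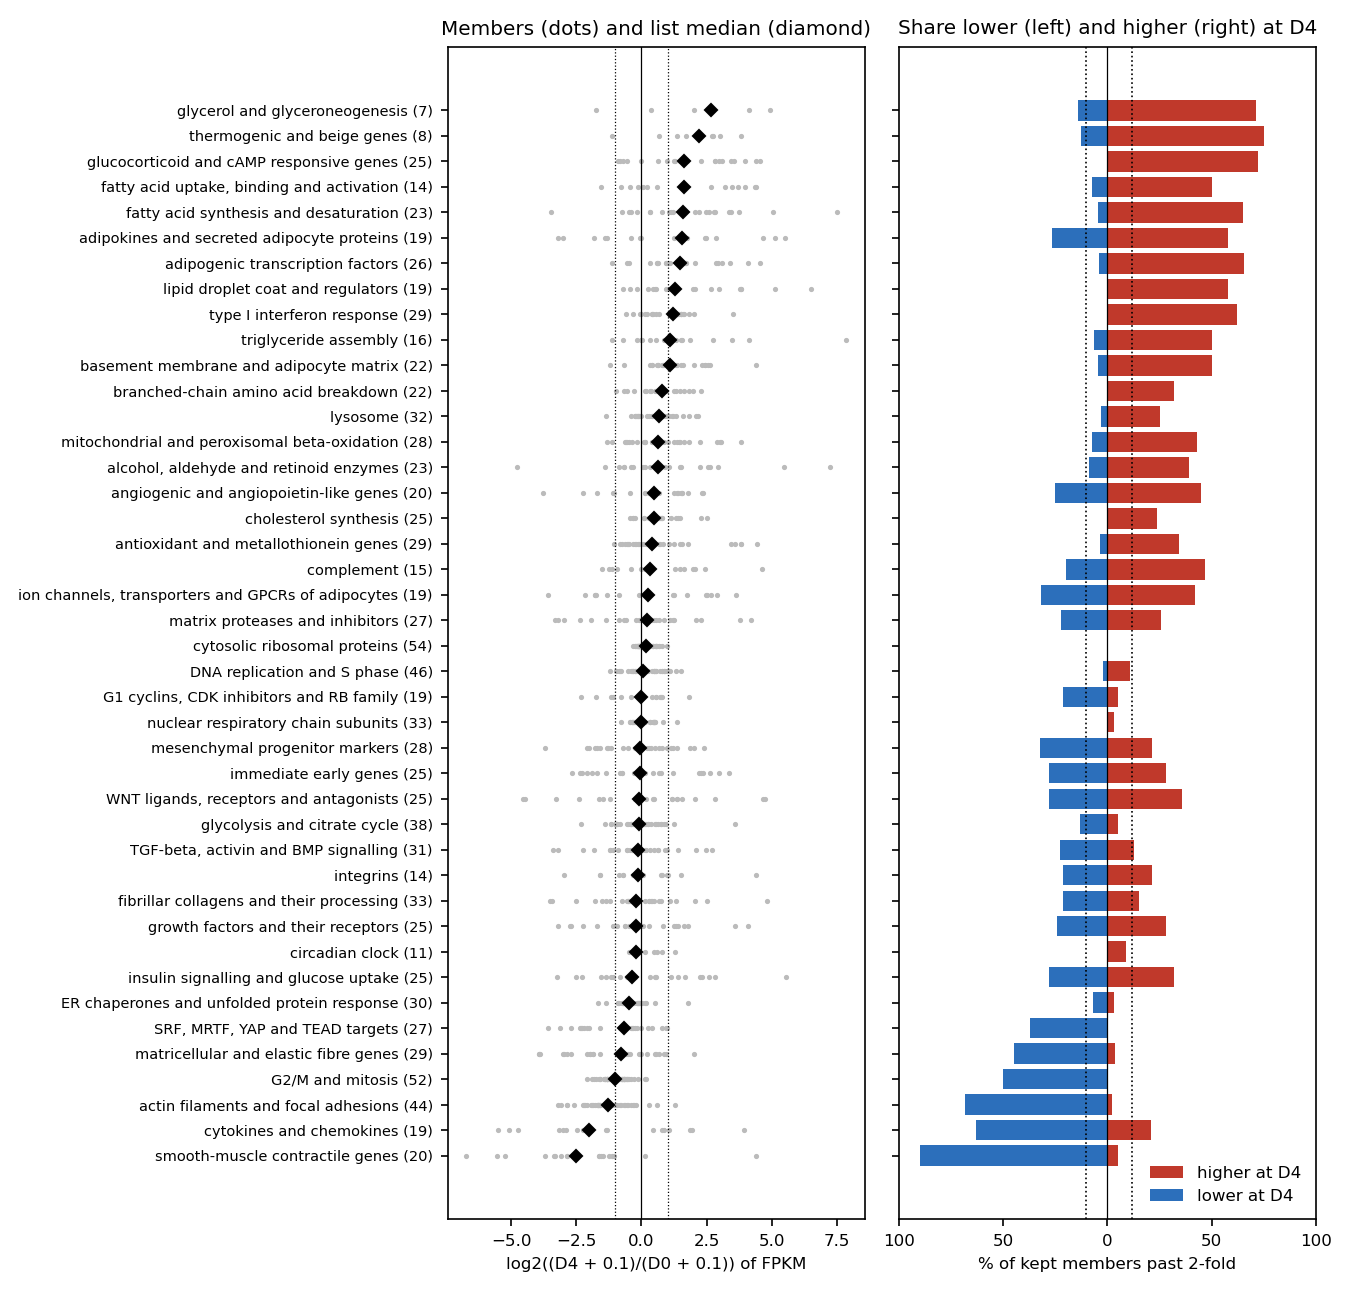
Log2 ratio of D4 to D0 for the members of 42 gene lists (left, 1 dot per gene that reached the filter, diamond for the median, number of genes in parentheses) and the percentage of those members at least 2-fold lower or higher at D4 (right). Dotted lines on the right mark the shares among all mRNAs, 11.6% higher and 10.3% lower. Lipid and glucocorticoid lists lie at the top and contractile, cytokine, actin and mitotic lists at the bottom.

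Adipogenic transcription factors were mostly higher at D4. Of 35 listed, 26 reached the filter, 17 rose and 1 fell, with a median log2 ratio of 1.48. PPARG, the nuclear receptor without which fat cells do not form, rose from 2.95 to 51.9 FPKM (log2 ratio 4.09). CEBPA, its partner, rose from 15.4 to 162 FPKM. At D8, PPARG was at 25.8 and CEBPA at 37.1 FPKM, so that both were below D4. The early factors were within 2-fold. CEBPB stood at 20.6 and 31.1 FPKM, and CEBPD at 140.4, 299 and 178 FPKM at D0, D2 and D4, highest at D2. Among glucocorticoid-induced factors, ZBTB16 rose from 0.199 to 6.86 FPKM, KLF9 from 8.67 to 74.8 and KLF15 from 0.657 to 5.39. EBF1, an early B-cell factor that also acts in fat cells, rose from 4.51 to 35.2 FPKM, and its relative EBF2 from 0.792 to 2.80. SREBF1, which drives lipogenic genes, differed little between D0 (0.734 FPKM) and D2 (0.970 FPKM) and rose to 3.34 FPKM at D4.

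Further down the same list, the liver X receptor NR1H3 rose from 13.7 to 27.7 FPKM and the retinoid X receptor RXRA, the dimer partner of PPARG, from 1.41 to 4.36. FOXO1, a target of insulin signalling, rose from 2.42 to 7.23 FPKM. The coactivator PPARGC1B (0.311 and 1.24 FPKM), the preadipocyte factor ZNF423 (0.582 and 1.71), the RNA-binding protein ZFP36 (0.690 and 2.33), the corepressor TLE3 (2.02 and 4.20) and STAT5A (4.70 and 10.1) also rose. The inhibitors of DNA binding did not move as one. ID1 rose from 93.9 to 303 FPKM, whereas ID2 was at 7.92 and 15.3, ID3 at 793 and 546 and ID4 at 7.40 and 5.25 FPKM, all within 2-fold. Also within 2-fold were the glucocorticoid receptor NR3C1 (6.21 and 9.75 FPKM) and STAT5B (3.76 and 5.81). The corepressor NRIP1 (1.13 and 2.27 FPKM) lay at the threshold, with a log2 ratio of 0.94. KLF4, which acts at the very start of adipogenesis, was the member that fell, from 5.40 to 2.42 FPKM.

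Uptake of fatty acids was represented by genes at high levels. Of the 14 genes for uptake, binding and activation that reached the filter, 7 rose and 1 fell (median log2 ratio 1.63), and the summed level of the listed genes went from 669 to 6616 FPKM. The largest part of that sum at D4 was FABP3, a fatty acid binding protein best known from heart, which rose from 153 to 3254 FPKM. FABP4, the fat cell form, rose from 77.5 to 853 FPKM and FABP5 from 63.1 to 589, so that per length FABP3 was the most abundant of these 3 at both stages. DBI, which binds acyl-CoA, rose from 204 to 1293 FPKM. ACSL1, which joins fatty acids to CoA, rose from 10.7 to 219 FPKM. Lipoprotein lipase LPL rose from 19.2 to 249.8 FPKM, and the scavenger receptor CD36 from 3.90 to 63.1. VLDLR, a lipoprotein receptor, fell from 30.6 to 10.4 FPKM.

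Most genes of de novo lipogenesis rose. Of 23 genes of fatty acid synthesis and desaturation, 15 rose and 1 fell (median 1.60). ACACA, which makes malonyl-CoA, rose from 7.15 to 51.7 FPKM, and ACSS2, which makes acetyl-CoA from acetate, from 4.38 to 31.0. Pyruvate carboxylase PC rose from 2.17 to 30.4 FPKM. SCD, the delta-9 desaturase, rose from 31.5 to 1053 FPKM, the highest D4 level of the members named here. The elongases ELOVL6 (3.67 to 39.1 FPKM) and ELOVL7 (0.956 to 11.4) rose as well. ELOVL6 went on to 94.0 FPKM at D8 and ACSS2 to 35.8. FADS3, a member of the fatty acid desaturase family, fell from 13.9 to 1.17 FPKM.

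Triglyceride assembly had 16 genes past the filter, of which 8 rose and 1 fell. Of the 16, 3 reached the filter through D4 alone. Beside DGAT2, GPD1, which makes glycerol 3-phosphate, rose from 0.787 to 15.4 FPKM, and the phosphatidate phosphatase LPIN1 from 0.267 to 4.03. The acyltransferases rose less, with GPAM at 1.88 and 5.55 FPKM, GPAT4 at 20.02 and 58.8 and AGPAT1 at 2.42 and 9.10. LPIN2 rose from 2.12 to 5.48 FPKM. Per length, GPAT4 was the more abundant of the 2 glycerol phosphate acyltransferases at both stages. In the glycerol list, 5 of 7 genes rose and 1 fell, and 3 of the 7 reached the filter through D4 alone. Glycerol kinase GK rose from 1.05 to 7.58 FPKM and the water and glycerol channel AQP3 from 0.327 to 13.1. AQP11, another aquaporin, rose from 0.499 to 2.34 FPKM. The 2 forms of phosphoenolpyruvate carboxykinase went in opposite directions, PCK1 (cytosolic) from 1.40 up to 9.39 FPKM and PCK2 (mitochondrial) from 39.4 down to 11.7. GPD2, the mitochondrial glycerol phosphate dehydrogenase, was at 18.5 and 23.8 FPKM.

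Of 19 genes for coat proteins and lipases of the lipid droplet, 11 rose, 0 fell and 8 did neither. PLIN4, another perilipin, rose from 0.0941 to 2.65 FPKM. CIDEA, which fuses droplets, rose from 2.75 to 40.2 FPKM and CIDEC from 0.271 to 5.01. Of the lipolytic genes, PNPLA2, the first lipase of triglyceride breakdown, rose from 2.70 to 17.9 FPKM and hormone-sensitive lipase LIPE from 0.808 to 31.9. ABHD5, the coactivator of PNPLA2, rose from 19.9 to 157 FPKM and was more abundant per length than either lipase. FITM2, which partitions triglyceride into droplets, rose from 5.61 to 23.9 FPKM. Synthesis and breakdown genes were both higher at D4.

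Genes of insulin action split, with 8 of 25 up and 7 down. SLC2A4, the insulin-regulated glucose transporter GLUT4, rose from 0.0924 to 8.80 FPKM. INSR, the insulin receptor, rose from 1.11 to 5.68 FPKM, and PIK3R1, the regulatory subunit of PI 3-kinase, from 2.91 to 14.8. TBC1D4, which holds GLUT4 vesicles back until insulin acts, rose from 1.89 to 11.9 FPKM, and PDE3B, through which insulin lowers cAMP, from 0.501 to 4.13. The fructose transporter SLC2A5 fell from 1.70 to 0.214 FPKM. The caveolins, which shape membrane pits that hold insulin receptors, fell too, CAV1 from 294 to 31.4 and CAV2 from 55.2 to 11.2 FPKM, and were back at 221 and 43.1 FPKM at D8.

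Genes of fuel oxidation were read by fuel. Of 28 genes of beta-oxidation, 12 rose, 2 fell and 14 did neither. Several of the larger changes were in peroxisomal genes. Catalase CAT rose from 39.0 to 547 FPKM, the thiolase ACAA1 from 8.59 to 71.7 and the proliferation factor PEX11A from 0.915 to 7.42. PHYH, which oxidises phytanic acid there, rose from 21.5 to 66.8 FPKM. In mitochondria, ECI1 rose from 12.1 to 57.6 FPKM and HADH from 43.5 to 121. PDK4, which holds back pyruvate oxidation, rose from 0.153 to 1.97 FPKM. For branched-chain amino acids, 7 of 22 genes rose and 0 fell. Both subunits of methylcrotonyl-CoA carboxylase were among them, MCCC1 (2.54 to 12.7 FPKM) and MCCC2 (1.67 to 6.82). PCCA, a subunit of propionyl-CoA carboxylase, rose from 3.71 to 10.5 FPKM, and the ketone body enzyme OXCT1 from 7.16 to 22.7.

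For glucose, 2 of 38 entries for glycolysis and the citrate cycle rose and 5 fell, with LDHB counted in 2 entries. ALDOC, an aldolase, rose from 9.37 to 115 FPKM, and MDH1, the cytosolic malate dehydrogenase, from 114 to 271. The glycolytic genes LDHA (519 to 197 FPKM), GAPDH (693 to 345), PGAM1 (516 to 226) and HK2 (13.9 to 6.11) fell. ENO2 fell from 3.86 to 0.687 FPKM, and TPI1 was at 823 and 420.4. Of 33 nuclear genes for the respiratory chain, 1 rose and 0 fell, with a range of log2 ratios from -0.79 to 1.35. The one that rose was COX7A1, a cytochrome oxidase subunit of contractile and brown fat tissue (15.5 to 39.7 FPKM). mRNAs encoded by mitochondrial DNA held 0.323% of summed mRNA FPKM at D0 and 1.07% at D4. Of the thermogenic list, 19 of 22 genes were matched, 11 stayed below the filter and 6 of the 8 that reached it rose. Of those 8, 3 reached the filter through D4 alone. CITED1, a beige marker, rose at a low level from 0.112 to 1.30 FPKM, TMEM26, another one, fell from 5.93 to 2.64, and creatine kinase CKB was at 24.3 and 39.3.

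Of 25 cholesterol genes, 6 rose and 0 fell (median 0.47). HMGCS1, an early enzyme of the pathway, rose from 35.4 to 93.4 FPKM, and TM7SF2 from 0.491 to 2.75. HSD17B7 rose from 24.7 to 54.8 FPKM. The member with the largest rise was the cholesterol exporter ABCA1, from 7.69 to 45.0 FPKM. The list stood highest at D4 for 21 of 25 genes. Among lysosomal genes, 8 of 32 rose and 1 fell, with LIPA, the acid lipase, at 4.38 and 19.1 FPKM and progranulin GRN at 10.4 and 47.1. CTSS, a cathepsin of immune cells, fell from 1.26 to 0.431 FPKM.

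Secreted proteins of fat cells went in both directions, with 11 of 19 up and 5 down. Beside ADIPOQ, PTX3, a pattern recognition protein, rose from 11.3 to 396 FPKM, which made it more abundant per length than ADIPOQ at D4. SFRP5, an antagonist of WNT signalling, rose from 0.306 to 10.3 FPKM and angiotensinogen AGT from 2.58 to 19.2. FST, which binds activin, rose from 0.830 to 5.06 FPKM. The chemokine CCL2 fell from 54.7 to 6.65 FPKM. Leptin (LEP) stayed below the filter, with 110 fragments at D0 (0.291 FPKM) and 10 at D4 (0.0269 FPKM).

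Cytokines and chemokines fell more often than they rose, 12 against 4 of 19 (median -2.02). Beside IL11 and IL1RL1, CXCL8 fell from 5.41 to 0.109 FPKM, IL1A from 2.90 to 0.238, IL33 from 7.08 to 1.18 and LIF from 1.87 to 0.167. CXCL12, the ligand of CXCR4, rose from 0.108 to 3.08 FPKM. Complement showed 7 rises and 3 falls among 15 genes, and 4 of the 15 reached the filter through D4 alone. The terminal component C7 rose from 0.656 to 18.5 FPKM, the proteases C1S from 44.7 to 178 and C1R from 19.2 to 47.4, and their inhibitor SERPING1 from 8.93 to 25.2. C2 rose from 0.685 to 3.18 FPKM, CFB from 0.327 to 2.23 and C4A from 0.296 to 1.12. C1QTNF3, a relative of adiponectin, fell from 2.03 to 0.649 FPKM.

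Interferon-stimulated genes, which encode antiviral proteins, had 18 of 29 up and 0 down (median 1.20). IFIT1, which binds viral RNA, rose from 0.658 to 8.61 FPKM and was at 15.9 at D8. IFIT3 rose from 1.71 to 7.20 FPKM, tetherin BST2 from 5.27 to 18.9 and IFI44 from 10.1 to 30.3. The ubiquitin ligase TRIM25 rose from 3.72 to 10.8 FPKM and the factor IRF7 from 1.02 to 3.09. PARP14 and CMPK2 also rose but were low, at 1.14 and 1.60 FPKM at D4. The D8 library held the highest level of 19 of 30 genes of this list, against 9 at D4.

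More basement membrane genes rose than fell, and more matricellular genes fell than rose. Of 22 genes of the basement membrane and fat cell matrix, 11 rose and 1 fell (median 1.08). The collagen IV chains moved together, COL4A1 from 68.8 to 373 and COL4A2 from 25.6 to 139.9 FPKM, with log2 ratios of 2.44 and 2.44. The laminin chains LAMA2 (4.42 to 28.0 FPKM) and LAMB1 (65.5 to 265) and the linker NID1 (13.3 to 79.3) rose too. COL6A3, whose fragment endotrophin is a fat cell product, rose from 16.8 to 85.1 FPKM, and COL15A1 from 19.4 to 58.8. ITGA7, a laminin receptor, rose from 2.23 to 48.9 FPKM. At D8, NID1 was at 13.4 and COL4A1 at 102 FPKM.

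Interstitial collagen genes split, 5 up and 7 down of 33. COL3A1 rose from 491 to 2058 FPKM and COL5A3 from 1.23 to 37.1, whereas COL5A1 fell from 61.2 to 21.3 and COL11A1 from 6.65 to 0.529. COL11A1 then stood at 44.1 FPKM at D8, above D0. Of the small proteoglycans, LUM rose from 32.6 to 186 FPKM and FMOD fell from 269 to 79.0. The crosslinking enzymes LOXL4 (46.3 to 4.01 FPKM) and LOXL3 (3.43 to 0.521) fell. Of 29 matricellular and elastic fibre genes, 13 fell and 1 rose. Elastin ELN fell from 22.6 to 1.41 FPKM, the microfibril protein MFAP5 from 135 to 9.09 and LTBP2 from 15.7 to 2.09. The abundant THBS1 fell from 1689 to 212 FPKM. SPP1 (osteopontin) fell from 27.0 to 3.36 FPKM. WISP2 fell from 1.52 FPKM to 0.00721, which was 1 fragment, against 213 fragments at D0.

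Matrix proteases were mixed (7 up, 6 down of 27). The gelatinase MMP2 rose from 99.3 to 481 FPKM while the collagenase MMP1 fell from 64.2 to 6.38. ADAMTS4 rose from 2.32 to 32.8 FPKM and ADAMTS12 from 0.281 to 6.88, but ADAMTS6 fell from 7.05 to 1.30. TIMP4, a protease inhibitor of fat tissue, rose from 0.401 to 2.06 FPKM, and SERPINE2 fell from 36.4 to 4.51. Among integrins, 3 of 14 rose and 3 fell. ITGB1, the common beta chain, fell from 319 to 104 FPKM, and ITGA8 from 46.1 to 5.85, whereas the laminin receptor ITGA6 rose from 1.73 to 5.16.

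Most genes of the contractile cytoskeleton fell. Of 20 smooth-muscle contractile genes, 18 fell, and the single rise was ITGA7. ACTA2, smooth muscle actin, fell from 2907 to 225 FPKM and TAGLN from 2767 to 277. TGFB1I1 (HIC-5), a focal adhesion cofactor, fell from 14.7 to 1.351 FPKM. The fall was in place at D2, when ACTA2 was at 324 FPKM, and ACTA2 was back at 2762 FPKM at D8. In the wider list of actin filaments and focal adhesions, 30 of 44 genes fell and 1 rose. The tropomyosins TPM1 (501 to 68.4 FPKM), TPM2 (413 to 48.0) and TPM4 (2385 to 399.6) fell, as did the myosin light chains MYL6 (1112 to 235) and MYL9 (18.7 to 2.52). Filamin FLNC fell from 34.5 to 3.69 FPKM, PALLD from 63.7 to 13.7 and PDLIM5 from 25.5 to 5.56. The summed level of the listed actin genes was 15094 FPKM at D0 and 6371 at D4.

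Targets of SRF, MRTF, YAP and TEAD, factors that respond to actin tension, had 10 of 27 genes down and 0 up. Of the 27, 4 reached the filter through D0 alone and 0 through D4 alone. CTGF fell from 44.5 to 6.70 FPKM and CYR61 from 195 to 45.9. ANKRD1 fell from 1.72 to 0.0499 FPKM, and the receptor kinase AXL from 36.0 to 4.08. AJUBA, a LIM protein, fell from 10.5 to 2.02 FPKM, MYOF from 40.5 to 8.73, CRIM1 from 25.4 to 5.16 and NUAK2 from 1.29 to 0.169. CTGF and ANKRD1 were at 52.0 and 4.07 FPKM at D8, above their D0 levels.

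**Figure D3:**
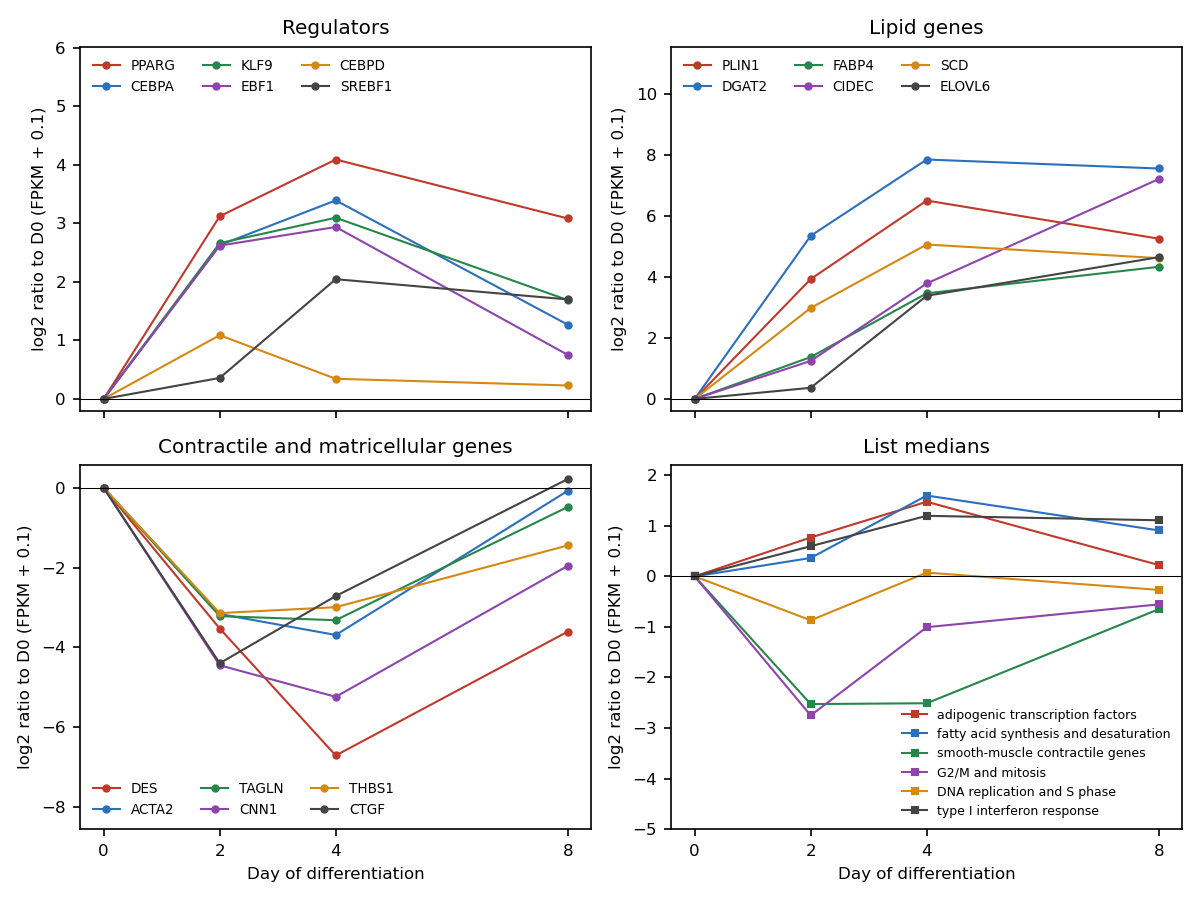
Log2 ratio to D0, on FPKM + 0.1, of named genes and of list medians at days 0, 2, 4 and 8, with 1 pooled library per point and no error bars. PPARG, CEBPA, KLF9 and EBF1 stood highest at D4, FABP4, CIDEC and ELOVL6 at D8, the median of the contractile list was -2.53 at D2 and -2.51 at D4, and that of the G2/M list was lowest at D2 (-2.75).

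Signalling lists were split, with large changes of single members. In the WNT list, 9 rose and 7 fell of 25. The receptor FZD4 rose from 2.18 to 60.4 FPKM. The secreted antagonists diverged, since SFRP5 rose and SFRP4 and SFRP2 (273 to 52.4 FPKM) fell, as did DKK2 (12.2 to 1.16). RSPO1, which strengthens WNT signals, fell from 5.16 to 0.137 FPKM. The nuclear effector LEF1 and the feedback inhibitor NKD1 rose at low levels, to 1.11 and 2.48 FPKM. In the list for TGF-beta, activin and BMP, 4 rose and 7 fell of 31. The mediator SMAD3 rose from 4.17 to 17.99 FPKM and the coreceptor TGFBR3 from 3.37 to 22.7, while the stress cytokine GDF15 fell from 3.65 to 0.261. FSTL3 fell from 36.4 to 7.54 FPKM, the opposite of its relative FST, and the BMP antagonist GREM1 from 3.00 to 0.789. The activin receptor ACVR2A rose from 7.20 to 19.1 FPKM.

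Among growth factors and receptors, 7 rose and 6 fell of 25. Of the 25, 5 reached the filter through D0 alone and 3 through D4 alone. FGF10, a factor needed for fat pads to form, rose from 0.179 to 4.60 FPKM, and the growth hormone receptor GHR from 0.299 to 4.69. The EGF receptor ligand AREG fell from 2.28 to 0.156 FPKM, FGF9 from 1.88 to 0.197 and the receptor MET from 1.99 to 0.542. IGFBP5 fell from 29.0 to 6.05 FPKM, and IGFBP3 rose from 0.313 to 1.31. Angiogenic and angiopoietin-like genes had 9 rises and 5 falls of 20. Of the 20, 5 reached the filter through D4 alone and 1 through D0 alone. ANGPTL4, an inhibitor of lipoprotein lipase, rose from 19.2 to 57.1 FPKM and ANGPTL2 from 30.8 to 91.8. The semaphorins SEMA3D (76.5 to 5.50 FPKM) and SEMA3C (48.2 to 10.04) fell, whereas SEMA3F rose from 0.935 to 5.11.

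Receptors and transporters of fat cells were split 8 up to 6 down of 19. The adenosine receptor ADORA1, which restrains lipolysis, rose from 0.0870 to 2.23 FPKM. The prostaglandin F receptor PTGFR rose from 11.4 to 65.0 FPKM and prostacyclin synthase PTGIS from 3.64 to 23.6, while the cyclooxygenase PTGS2 fell from 3.79 to 0.220. The glutamate transporter SLC1A3 rose from 6.792 to 50.8 FPKM, S1PR1, a sphingosine phosphate receptor, from 1.91 to 11.06, and the lactate exporter SLC16A3 fell from 9.71 to 2.07. NPR3, the clearance receptor for natriuretic peptides, fell from 2.09 to 0.533 FPKM.

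The glucocorticoid and cAMP list, which answers to the agents of the cocktail, had 18 of 25 genes up and 0 down (median 1.64), and dexamethasone had been withdrawn at D2. FKBP5, a chaperone of the glucocorticoid receptor, rose from 4.88 to 77.4 FPKM. Glutamine synthetase GLUL rose from 35.5 to 412 FPKM and PRKAR2B, a regulatory subunit of protein kinase A, from 1.58 to 34.8. TSC22D3 (GILZ) rose from 3.26 to 23.6 FPKM, below its D2 level of 33.5, and the metallothionein MT1A from 0.459 to 6.01, also below D2 (11.3). APOD, a lipocalin, rose from 0.0628 to 1.17 FPKM. The list stood highest at D2 for 12 and at D4 for 10 of 26 genes. Of the immediate early genes, 7 rose and 7 fell of 25. FOS rose from 1.49 to 9.66 FPKM, EGR1 from 0.529 to 2.94 and the feedback inhibitors SPRY2 from 1.16 to 9.85, DUSP4 from 0.445 to 5.48 and DUSP2 from 0.130 to 1.07. IER3 (26.6 to 4.13 FPKM), ATF3 (9.58 to 1.87) and MAFF (10.3 to 1.92) fell.

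Mitotic genes and replication genes parted at D4. Of 52 genes of G2/M and mitosis, 26 fell and 0 rose, with log2 ratios from -2.07 to 0.17. Cyclin B1 (CCNB1) was at 43.8, 3.09, 11.6 and 25.9 FPKM at D0, D2, D4 and D8, and securin PTTG1 at 50.4, 4.81, 14.02 and 26.8. ANLN, a scaffold of the cleavage furrow, was at 21.1, 1.38, 4.93 and 13.6 FPKM. These genes were lowest at D2 and had come up in part by D4. BIRC5 (survivin) fell from 21.4 to 6.98 FPKM, and the kinetochore genes SPC24 from 54.2 to 16.1 and NUF2 from 17.5 to 5.66. ECT2 fell from 13.7 to 4.41 FPKM and CKS2 from 62.9 to 23.1. Of 46 genes of DNA replication and S phase, 5 rose, 1 fell and 40 did neither (median log2 ratio 0.07). The share that rose, 10.9%, was close to the 11.6% of all mRNAs. Of the 46, 3 reached the filter through D4 alone. MCM3, a subunit of the replicative helicase, was at 5.97, 1.94, 14.9 and 5.47 FPKM at the 4 stages. UHRF1, which maintains DNA methylation behind the fork, was at 1.61, 0.339, 3.38 and 1.31 FPKM. The cyclins CCNE1 (1.34 to 2.87 FPKM) and CCNE2 (0.7995 to 2.50) rose, MCM10 rose from 1.27 to 2.85, and CCNA2 fell from 17.7 to 7.57. D4 held the highest level of 26 of 46 replication genes and of 2 of 52 mitotic genes. Of the 19 G1 regulators, cyclin D1 (CCND1) fell from 14.4 to 2.79 FPKM, CDKN2D from 5.92 to 1.69, E2F5 from 1.06 to 0.422 and RB1 from 3.24 to 1.47, and the pocket protein RBL2 rose from 1.74 to 6.35.

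Few members of the ribosomal protein, chaperone and clock lists passed 2-fold. In the antioxidant list (34.5%) and the alcohol, aldehyde and retinoid list (39.1%), the share that rose was above the 11.6% of all mRNAs. No gene of 54 for cytosolic ribosomal proteins passed 2-fold, and their median log2 ratio was 0.17. RPS20 came closest, with 892 and 1773 FPKM. For chaperones of the endoplasmic reticulum, 1 rose and 2 fell of 30. CREB3L2 rose from 2.06 to 7.28 FPKM, CHAC1 fell from 12.1 to 3.70 and asparagine synthetase ASNS from 152 to 59.6, while HSPA5 was at 349 and 185. The clock list had 1 rise, PER1 (0.586 to 1.56 FPKM), and 0 falls among 11 genes. Of 29 antioxidant genes, 10 rose and 1 fell. The selenoproteins GPX3 (3.18 to 70.8 FPKM) and SELENOP (40.7 to 583) and the microsomal transferase MGST1 (32.5 to 389.8) rose most, beside CAT. Of enzymes for alcohols, aldehydes and retinoids, 9 of 23 rose and 2 fell. ALDH9A1 rose from 34.5 to 264 FPKM, the aldehyde oxidase AOX1 from 2.90 to 14.3, the retinal reductase DHRS3 from 0.397 to 3.01 and ALDH1A3 from 6.02 to 17.3. CRABP1 rose from 0.502 to 3.43 FPKM, opposite in direction to CRABP2.

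Among the most abundant mRNAs, EEF1A1, an elongation factor, was first at both stages (8049 and 8282 FPKM), and ribosomal proteins made up most of the 10 most abundant mRNAs. LGALS1, the lectin galectin 1, was second at D0 with 5722 FPKM and fell to 899. The actin-binding peptides TMSB4X and TMSB10 were also among the 10 at D0, and TMSB4X fell from 4435 to 687 FPKM whereas TMSB10 was at 4677 and 3171. FTL, the ferritin light chain, entered the 10 most abundant at D4 after rising from 1217 to 3989 FPKM.

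The labelled cell type was checked on defining markers. Of 12 fat cell markers, 10 reached the filter and 10 rose, with a summed level of 129 FPKM at D0 and 1829 at D4. Of the 12, 8 stood at 1 FPKM or more at D0 and 10 at D4. CIDEC and LIPE thus reached the filter through D4 alone, which fixes their direction. LEP and AQP7 (0.0158 and 0.732 FPKM) were the ones below the filter, and LEP was lower at D4 than at D0. Fibroblast and preadipocyte markers were not lost, since 4 rose and 2 fell of 10. PDGFRA, the classical preadipocyte receptor, was at 75.8 and 149 FPKM and DCN, the proteoglycan decorin, rose from 154 to 329.7. Progenitor markers in the wider list split 6 up to 9 down of 28. DPP4 fell from 8.64 to 2.57 FPKM, NT5E (CD73) from 3.22 to 0.731 and CD248 from 7.80 to 2.21. S100A4 fell from 87.5 to 6.60 FPKM and S100A6 from 766 to 179.5, while VCAM1 rose from 8.28 to 44.2, SNAI2 from 22.7 to 82.0 and ALCAM from 0.595 to 2.74.

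Markers of other cell types were also read, since no sort of the digest was described. Smooth muscle and pericyte markers fell in 7 of 8 cases, from a summed 6785 to 528 FPKM, but MYH11, which defines mature smooth muscle, was at 0.633 and 0.341 FPKM. Fibroblasts in culture also make ACTA2, TAGLN and CNN1, and the part of smooth muscle cells in the fall was not tested. Endothelial markers summed to 6.54 and 2.82 FPKM, nearly all of it ERG (3.72 and 0.850) and PECAM1 (2.56 and 1.70), with CDH5 at 0 and 0.0450, VWF at 0.0137 and 0 and KDR at 0.0153 and 0.0155. Macrophage markers summed to 6.32 and 11.6 FPKM, mostly CD14 (3.14 and 7.54), with CD68 at 0.0108 and 0.208 and CSF1R at 0.109 and 0.0434. None of the 3 lymphocyte, 5 skeletal muscle or 1 erythroid markers matched by symbol reached 1 FPKM at any stage, and of 5 Schwann cell markers S100B alone did so, at D4 (1.04 FPKM). Of 7 epithelial markers, 3 reached the filter and 2 rose, from a summed 52.5 to 199 FPKM. KRT5, a keratin of basal epithelium, was at 44.4, 107, 179.5 and 275 FPKM at D0, D2, D4 and D8, and KRT8 at 4.46, 8.25, 15.8 and 25.1. EPCAM (0.504 and 0.639 FPKM) and CDH1 (0.174 and 0.835), which define epithelial cells, were below 1 at both stages, and whether epithelial cells were present was not tested.

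Whether D4 was the peak of the adipogenic state depended on the gene. Over all mRNAs of the comparison, 3831 had their highest level at D4, 3705 at D0, 1604 at D2 and 946 at D8. The filter leaves out mRNAs that reached 1 FPKM only at D2 or D8, which favours D0 and D4 in this tally. The list counts that follow take members of at least 1 FPKM at any stage. For adipogenic transcription factors, D4 was highest for 22 of 26. For fatty acid synthesis it was highest for 13 of 23 and for triglyceride assembly for 11 of 16. Of the 10 fat cell markers that reached 1 FPKM at some stage, 8 were highest at D4, and FABP4 and CIDEC at D8. FABP4 was at 853 FPKM at D4 and 1557 at D8, and CIDEC at 5.01 and 54.6. CIDEA (40.2 and 54.3 FPKM), FABP3 (3254 and 3805) and PLIN4 (2.65 and 4.76) were also higher at D8, whereas PLIN1 (215 and 90.3), LPL (249.8 and 142) and LIPE (31.9 and 10.3) were lower. The summed level of the fat cell markers was 1829 FPKM at D4 and 2139 at D8. D4 was thus the highest of the sampled stages for most regulators and fat cell markers, but not for the summed marker level.

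Among lncRNAs, the share past 2-fold was larger than among mRNAs, with 200 (23.8%) up and 238 (28.3%) down of 840. Their levels were also lower, with a median of 1.47 FPKM at D0 against 6.86 for mRNAs. Of the 840, 227 reached the filter through D0 alone and 220 through D4 alone, and for these the filter fixes the direction. Among the 393 lncRNAs that reached 1 FPKM in both libraries, 10.4% rose and 12.5% fell. For the 8985 mRNAs that did so, the shares were 8.43% and 8.27%. Annotated lncRNAs rose more often than they fell (65 and 51 of 305). Intergenic transcripts assembled by the authors went the other way (74 and 116 of 307), and antisense ones were closer to even (61 and 71 of 228). The most abundant, LOC106509199, was at 122569 and 168876 FPKM, more than any mRNA. At the threshold, LOC110259851 (2.09 and 4.27 FPKM) lay just outside on the upper side and MSTRG.98826 (6.21 and 3.09 FPKM) on the lower.

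The largest fall among lncRNAs of at least 5 FPKM was that of LOC100514834 (chr4:75294209-75296319, minus strand), from 39.5 FPKM at D0 to 0.0889 at D4. This rested on 2254 and 5 fragments, a ratio of 445 with an interval of 190.3 to 1371, and the level at D8 was 8.63 FPKM. It lies in intergenic sequence, 83221 bases from IMPAD1, which was at 55.8 and 81.7 FPKM. MSTRG.155049, an intergenic transcript at chrX:109101502-109106813, had 21 fragments at D0 (5.06 FPKM) and 0 at D4. MSTRG.5792 (chr1:105941382-105942322) fell from 8.77 to 0.197 FPKM and MSTRG.67937 (chr7:5669670-5734016) from 22.8 to 1.29. MSTRG.146410 (chr17:54491694-54533892) fell from 52.0 to 3.03 FPKM while ZNF217, 72047 bases away, rose from 1.15 to 4.34. MSTRG.22314, antisense to KEAP1 and S1PR5 (chr2:69273046-69313225), fell from 48.8 to 1.79 FPKM, and KEAP1, the sensor of oxidative stress, was at 17.7 and 20.02.

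The largest rise was that of MSTRG.49742, an intergenic transcript at chr5:24874032-24878228 on the plus strand, from 1.78 to 14.9 FPKM. It begins 2141 bases beyond the end of SLC16A7, a pyruvate and lactate transporter on the same strand that rose from 2.33 to 14.5 FPKM. MSTRG.104810, intergenic at chr12:43327510-43328400 on the minus strand, rose from 1.15 to 6.56 FPKM. On the minus strand of chromosome 2, LOC100513133 (chr2:6803590-6811708) rose from 19.6 to 66.3 FPKM and MSTRG.17987 (chr2:6747825-6758624) from 593 to 1838. The stretch from the first base of MSTRG.17987 to the last of LOC100513133 spans 63.9 kb and holds a further transcript, MSTRG.18003, singled out after its values were seen, at 3.86 and 10.2 FPKM. FRMD8, a neighbouring gene, was at 5.57 and 8.84 FPKM. MSTRG.125308 (chr14:77935619-77936300) rose from 2.27 to 7.10 FPKM, and the nearest gene, ZNF503, from 2.45 to 7.57. MSTRG.59608, antisense to BAX and FTL (chr6:54225299-54234232), rose from 1.71 to 5.44 FPKM. That was 0.140% of the FTL level at D0 and 0.136% at D4, and the part of FTL reads assigned to the wrong strand was not tested.

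**Figure D4:**
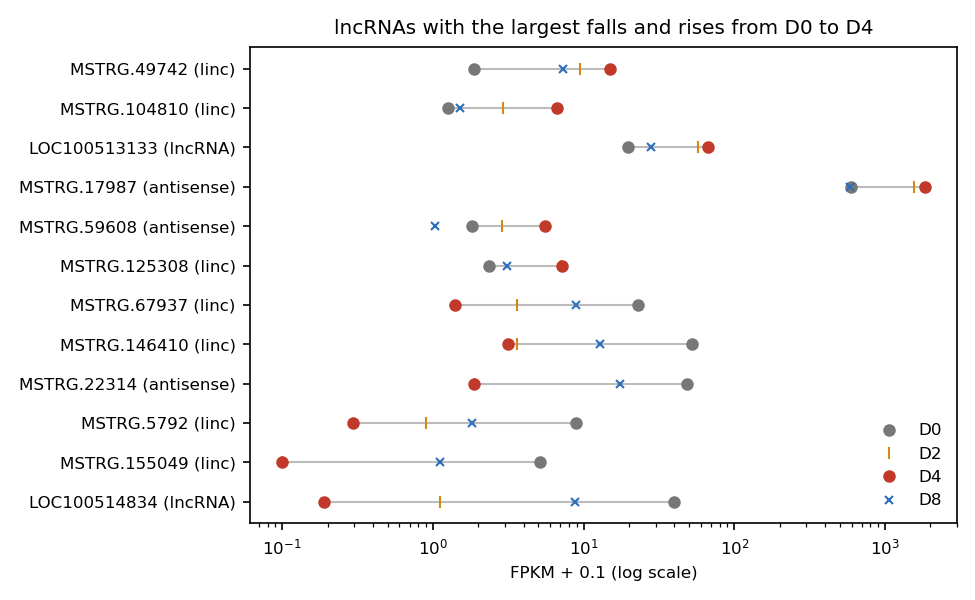
Levels of the 6 lncRNAs with the largest falls and the 6 with the largest rises, as FPKM + 0.1 on a log scale, at D0, D2, D4 and D8 (1 pooled library each). The fallen lncRNAs are between the D0 and D4 levels at D2 and D8, with MSTRG.155049 at 0 FPKM at both D2 and D4.

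Antisense lncRNAs and the genes they overlap were set side by side where a single protein-coding gene above the filter lay opposite, in 131 pairs. Of 28 antisense lncRNAs that rose, the partner rose in 6 and fell in 2. Of 43 that fell, the partner fell in 13 and rose in 2. Over all 131 pairs, the partner rose in 12 and fell in 25. The median log2 ratio of the partners was 0.21 for the first and -0.34 for the second, against -0.12 over all pairs. The following 3 pairs, chosen after their values were seen, show the range. The transcript MSTRG.144768, opposite ID1, rose from 0.351 to 3.77 FPKM while ID1 itself rose. MSTRG.97367, opposite the exportin gene XPO4, fell from 57.1 to 7.54 FPKM while XPO4 was at 6.46 and 8.07. MSTRG.88924 fell from 161 to 32.0 FPKM together with the metalloreductase STEAP2 opposite to it (6.199 to 1.43).

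circRNAs are closed RNA rings made when a splice donor joins an upstream acceptor, and the authors scaled the reads across that junction to SRPBM, that is, relative to all mapped reads of the library. One read was worth 6.42 SRPBM at D0 and 5.94 at D4. Of 2273 circRNAs, 647 (28.5%) rose and 887 (39.0%) fell, with fewer than 3 reads set to 3. The 95% counting interval of the ratio also left out 1 for 584 of the rises and 765 of the falls. In all, 893 circRNAs had 0 reads in one of the 2 libraries. They made up 421 of the 647 rises (0 reads at D0) and 472 of the 887 falls (0 reads at D4). For these, the minimum of 10 reads and the floor of 3 fix both the direction and the passing of 2-fold. The authors kept circRNAs of at least 2 junction reads, so that a 0 could also stand for a circRNA below that limit. The counting intervals take it as no read. Among the 181 circRNAs of at least 50 reads, 27 rose and 44 fell. Host genes, that is protein-coding genes around both junction ends on the same strand, were then read. Where the host was above the filter, its median log2 ratio was 0.19 for circRNAs that rose and -0.13 for those that fell, against 0.02 for all. The circRNAs that rose spanned a median of 8759 bases of the genome, those that fell 6377, and all of them 7470.

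The most abundant circRNA at D4, ssc_circ_0005779, was also the one with the largest rise. It lies in the uncharacterised gene LOC110256043 (chr12:39366927-39391822, minus strand) and had 22, 274, 907 and 785 reads at D0, D2, D4 and D8. The D4 to D0 ratio was 38.1 with an interval of 25.04 to 61.2, and the host mRNA rose from 2.06 to 41.3 FPKM. A circRNA of TET1, named after its values were seen, an enzyme that oxidises methylcytosine, rose from 62 to 315 reads (ratio 4.70, interval 3.57 to 6.28), and TET1 mRNA from 1.55 to 6.94 FPKM. The other circRNAs with the largest rises had no read at D0. Those in SNX6, RPSA and PCSK5 had 90, 87 and 70 reads at D4, that is, ratios of 27.8, 26.8 and 21.6 with the D0 count set to the floor of 3 reads. By the counting intervals they were at least 22.1-, 21.4- and 17.1-fold higher at D4. ssc_circ_0005632, outside any host, had 70 reads at D4. Of these hosts, SNX6, a sorting nexin, was at 52.6 and 40.2 FPKM, the ribosomal protein RPSA at 1901 and 2148, and the proprotein convertase PCSK5 rose from 5.41 to 11.6.

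The largest fall was that of a circRNA in ACTA2 (ssc_circ_0006731, chr14:100882995-100883147, minus strand, 153 bases). It had 312 reads at D0 and none at D2, D4 or D8, a ratio of D0 to D4 of 112 with the D4 count set to the floor of 3 reads and of at least 90.9 by the counting interval. ACTA2 mRNA fell from 2907 to 225 FPKM and was back at 2762 at D8, when the circRNA still had no read. A circRNA of ANTXR2, an anthrax toxin receptor that binds collagen, went from 159 reads to none, and that of REV3L, a subunit of DNA polymerase zeta, from 61 to none. The D8 library held 42 and 67 reads of these 2. Those in the kinase gene ABL1 (56 to 10 reads) and in VAPA (50 to 9), a tether of the endoplasmic reticulum, fell as well. In all, 11 circRNAs of at least 50 reads had none in the other library.

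ZEB1, which encodes a repressor of epithelial genes, was the host with the most junction reads at D0, with 1812 at D0 and 893 at D4 over 19 circRNAs. On the SRPBM scale these summed to a ratio of D0 to D4 of 2.19, and ZEB1 mRNA fell from 9.24 to 3.70 FPKM. ssc_circ_0005079 (chr10:42063516-42079536) had 855 and 442 reads and ssc_circ_0005074 548 and 242. ssc_circ_0005084, which starts 100 bases after ssc_circ_0005079 and ends at the same base, had 229, 89, 0 and 48 reads at the 4 stages. The reverse was seen for ssc_circ_0005080, from the same start to a later end, with 0, 123, 94 and 104 reads. Its counterpart with the later start, ssc_circ_0005085, had 32 and 8 reads. The part of read assignment between junctions that share an end was not tested.

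Another 3 abundant circRNAs, picked after their values were seen, were within 2-fold. That of XPO4 (ssc_circ_0005283) had 527 and 499 reads, at a host level of 6.46 and 8.07 FPKM. That of GLIS3, a zinc finger factor, had 391 and 302 reads and that of SLTM 262 and 314.

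In 12 host genes, circRNAs of at least 20 reads rose and fell side by side. These were APBB2, BBS9, DOCK1, KCTD3, MYCBP2, PICALM, PPIG, REV3L, SEC24B, SMARCA5, UBAP2 and ZEB1. In all, 739 circRNAs had at least 20 reads, with 538 hosts among them, and 156 rose and 242 fell. How many hosts held several such circRNAs was not counted. Whether 12 hosts are more than these shares alone would give was therefore not tested. Some of the examples below rest on few reads. In PICALM, which builds clathrin coats, ssc_circ_0004648 fell from 59 to 13 reads and ssc_circ_0004645 rose from 17 to 38, both ending at the same base. In BBS9, a part of the ciliary BBSome, ssc_circ_0008251 went from 23 to 9 reads and ssc_circ_0008250 from 6 to 50. In SMARCA5, an ATPase of chromatin remodelling, ssc_circ_0004364 fell from 71 to 35 reads and ssc_circ_0004365, with the same start, rose from 9 to 24. In REV3L, ssc_circ_0000815 rose from 5 to 57 reads. The mRNAs of PICALM (70.7 and 103 FPKM), BBS9 (4.86 and 5.53) and SMARCA5 (41.3 and 45.5) were within 2-fold, and REV3L mRNA rose from 9.37 to 36.2.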

How the data were processed

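RNA of 3 piglets was pooled per stage and sequenced as 1 strand-specific, rRNA-depleted library. Per the study's methods, the authors trimmed reads, aligned them to Sus scrofa 11.1 with HISAT2 2.0.5, kept assembled lncRNAs that met length, exon and coverage limits, and called circRNAs with BWA-MEM and CIRI from at least 2 junction reads. The deposited values are FPKM for mRNAs and lncRNAs and, in the same column, SRPBM for circRNAs, a junction coverage scaled to mapped reads. The counting tool is not given in the sources used here.

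Whole reads were recovered from both units, since each value is a whole multiple of what 1 read is worth. Junction reads came out whole within 8.35e-06 of a read, and no read number was found for 3 linear genes (TTN, WWOX and ZBTB20). The totals ran from 54128146 to 75387421 fragments per library. Reads served for the exact 95% counting intervals (conditional binomial) and the floor of 3 reads, not for a test, because 1 library per stage leaves none. A self-test on simulated data was part of the run.

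Log2 ratios took a pseudocount of 0.1 FPKM, which understates the change of low genes. Named genes were the 8 members of each list with the largest absolute log2 ratio, all adipogenic transcription factors past the filter, the 10 largest rises and falls among mRNAs of at least 10 FPKM with a symbol that is not LOC, the 6 largest among lncRNAs of at least 5 FPKM and among circRNAs of at least 50 reads, the 10 most abundant mRNAs at D0 and D4, and hosts with circRNAs of at least 20 reads past 2-fold in opposite directions. Cell type markers, genes at the threshold, hosts and neighbours of named RNAs, and genes said to be so were named beside these. Some named genes are not reported here. The members and lists were chosen with earlier results of these data known. Genes with near-identical copies (MT1A, RPSA and other ribosomal proteins, GAPDH) could have shared reads with them. Coordinates are those of the files, and 20259 of 22944 linear entries had the same ones in RefSeq (Sscrofa11.1). A planned search of promoters for motifs was not run, because no sequence was used here. Python 3.11.15, numpy 2.4.6, pandas 2.3.3, scipy 1.17.1 and matplotlib 3.10.9 were used.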

Additional observations from a re-analysis of the deposited data

Results flagged for a closer look

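In RNA classes outside the comparisons above, 4 loci of at least 10 FPKM rose at least 2-fold from D0 to D4, each in 1 library per stage and with counting error only. The pseudogene LOC100738647 (chr3:28815675-28816756) was at 2.67 FPKM at D0 and 29.7 at D4, with 20.1 at D2 and 8.76 at D8. The microRNA loci MIR365-2 and MIR193A, on the minus strand of chromosome 12, flank the lncRNA MSTRG.104810 at 2706 and 8569 bases. MIR365-2 was at 1.66 FPKM at D0 (10 reads) and 13.6 at D4 (81 reads), and MIR193A at 6.30 FPKM (38 reads) and 21.2 (126 reads). Both, like MSTRG.104810, were highest at D4. These reads cover the hairpin loci, and mature microRNAs were not measured in these libraries. The tRNA locus TRNAG-UCC (chr2:74134428-74134499) was at 24.5 FPKM at D0 and 54.9 at D4, or 133 and 294 reads.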

How the results depend on the processing

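No paired analysis was possible because each stage is 1 library, and for the same reason no replicate could be left out. No named value past 2-fold changed sign under the alternatives run, while ratios close to no change, such as the log2 ratio of RPL35 (-0.02, and 0.04 with centring), could. With a pseudocount of 1, rises numbered 759 among mRNAs and 73 among lncRNAs, and falls 154 among lncRNAs. Without a filter, 1032 lncRNAs rose and 953 fell. With at least 1 FPKM in both libraries, 757 mRNAs rose, and 41 lncRNAs rose and 49 fell. With at least 1 FPKM in at least 3 libraries, 68 lncRNAs rose and 64 fell. With at least 5 FPKM, 665 mRNAs rose and 673 fell, and 20 lncRNAs rose and 36 fell. For circRNAs, a minimum of 5 reads gave 1163 rises and 1607 falls, and 20 reads 156 and 242. These filters change how many features are tested. Centring on abundant mRNAs gave 1293 rises and 944 falls of mRNAs, and equal sums 1251 and 977. Scaling circRNAs by total junction reads, a shift of -0.17 on the log2 scale, gave 700 and 820. The other scaling shifts were 0.06 or less in size. Of the list counts, 607 of those recomputed stayed within 1.5 times and 65 did not. Of the recomputed log2 ratios of named genes, 35 moved, 27 of them with a pseudocount of 1. The planned motif search was not run. Values under about 1 FPKM on short transcripts and circRNAs under 10 reads rest on few reads, which limits what could be detected.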

Other observations

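Transfer RNA loci were read as well. At D0 or D4, 112 of them reached 10 FPKM, and of these 45 fell and 1 rose, the median log2 ratio being -0.78. Summed over these 112 loci, the level was 8438 FPKM at D0 and 5266 at D4, while D2 had 5961 and D8 had 5346. The highest stage was D0 for 76 of the 112, which were selected through D0 or D4. Shares over mRNAs at 10 FPKM were not counted. Among the 6604 mRNAs of at least 5 FPKM at D0 or D4, 10.1% rose and 10.2% fell. The rRNA locus RN18S, which depletion targets, was at 424 FPKM at D0 and 211 at D4. Of 21 microRNA loci of at least 10 FPKM, 2 rose and 6 fell. The share of such short RNAs kept by the library preparation was not tested.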
